A study of Mus musculus with 9 samples.

Results

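Of 38 genes for transcription factors that pattern the neural tube or drive neurogenesis, 23 had at least 1 accessible region assigned to them in wild-type pharyngeal mesoderm and hearts of mouse embryos, and together these 23 genes held 46 of the 17164 distinct regions of the list. Members were found by exact symbol: 6 Pax genes, 4 Sox genes of group B, 7 proneural and neuronal bHLH genes, 3 Olig genes, 4 POU genes, 10 regional homeobox genes and 4 Zic genes. That is 60.5% of the members, beside 49.3% of all protein-coding genes. Of the 46 regions, 10 (21.7%) lay within 1 kb of the assigned transcription start site (TSS), beside 52.9% of all regions. For 16 cardiac and pharyngeal mesoderm regulators it was 8 of 27 regions (29.6%). The other 36 member regions are called distal here, and 10 of these lay at 1 to 10 kb.

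The tissue was taken at embryonic day 8.75, when the embryos had 6 somites. ATAC-Seq maps accessible DNA through the cuts that the transposase Tn5 makes in it. The series has 9 libraries in 3 groups of 3, which are wild type (wt), Isl1-/- and Isl1Cre+/-/Brg1fl/fl. Isl1-/- embryos lack Isl1, a LIM homeodomain factor of cardiac progenitors, in all cells. In Isl1Cre+/-/Brg1fl/fl embryos the floxed Brg1 gene, which encodes the ATPase of the SWI/SNF remodeling complex, is removed only where Cre has been made from Isl1, and these embryos also carry 1 Cre allele of Isl1. The values below come from 1 list of regions shared by the 3 wild-type libraries, and the 6 mutant libraries were not analysed here. The list gives positions, a signed distance to a TSS, a RefSeq transcript and a symbol, with no score, read count or value per library, so the depth and the spread between libraries are unknown. The methods speak of 3 embryos of each genotype, and do not say whether they came from separate litters.

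Transcription factors of these families divide the early neural plate and tube into territories along its length and from its dorsal to its ventral side, and later select neurons and glia within them. Sox group B factors act in neural progenitors, proneural bHLH factors start neuronal differentiation, and homeodomain factors such as Otx, Gbx, En and Emx mark stretches of the brain. In cells of other lineages such genes are usually silent and covered by Polycomb complexes, and their promoters are often rich in CpG. Several of them also act outside the nervous system, as Pax8 does in the thyroid and kidney.

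Marker lists of this tissue and of its neighbors were counted as well. Of 16 cardiac and pharyngeal mesoderm regulators, 9 had a region (56.2%, Wilson interval 33.2 to 76.9), with 27 regions in all, 9 of them assigned to Isl1. The 7 without one were Nkx2-5, Gata6, Tbx1, Tbx5, Hand1, Hopx and Tcf21, among them defining regulators of this tissue. A region was assigned to 5 of 9 pharyngeal endoderm markers, 5 of 9 markers of surface ectoderm and placodes and 6 of 8 neural crest markers. Sox10 and Tfap2a of the neural crest list had no region, and neither did Foxa1, Shh, Nkx2-1 and Cldn6 of the endoderm list. Tfap2a is also in the surface ectoderm list, where Dlx3, Grhl2 and Grhl3 had no region either. The share over all protein-coding genes, 49.3%, lies within the interval of each list. Having a region therefore did not set the markers of this tissue apart from other genes. These shares also say nothing about cell numbers. A region that is open in a few cells of another type and one that is weakly open in many cells cannot be told apart in bulk tissue, and the part of neighboring ectoderm, endoderm or neural tissue in the regions below was not tested.

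The kinds of DNA behind the counts are shown by 7 windows of 300 bp from the centers of regions, read 5′ to 3′ on the plus strand of mm9 (NCBIM37). Capitals mark matches to any of 7 short words of transcription factor families, which are spelled out with their counts further below. The first window lies at the TSS of Atoh1, in the widest region within 1 kb of a TSS whose central window holds no annotated untranslated sequence, and it has no match.
Atoh1 start region, chr6:64678722-64679021: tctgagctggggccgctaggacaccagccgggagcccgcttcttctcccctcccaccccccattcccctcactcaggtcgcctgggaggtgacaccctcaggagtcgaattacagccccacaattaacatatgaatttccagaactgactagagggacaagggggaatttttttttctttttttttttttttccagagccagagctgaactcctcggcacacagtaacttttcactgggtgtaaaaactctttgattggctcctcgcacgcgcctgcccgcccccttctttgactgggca
The next 3 come from the widest distal region on the same condition, the distal region closest to its TSS and the one farthest away. Otx1 held TAATTA once, Neurog2 held CATCTG (the reverse complement of CAGATG) once, and Zic1 held 3 matches.
Otx1 distal region, chr11:21907646-21907945: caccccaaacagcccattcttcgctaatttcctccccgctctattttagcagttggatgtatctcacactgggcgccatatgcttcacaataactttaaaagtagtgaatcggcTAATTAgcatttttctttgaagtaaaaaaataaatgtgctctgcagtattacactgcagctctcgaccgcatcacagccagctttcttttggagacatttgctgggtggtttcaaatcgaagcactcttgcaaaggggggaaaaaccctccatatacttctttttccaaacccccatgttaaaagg
Neurog2 region in its exon, chr3:127337000-127337299: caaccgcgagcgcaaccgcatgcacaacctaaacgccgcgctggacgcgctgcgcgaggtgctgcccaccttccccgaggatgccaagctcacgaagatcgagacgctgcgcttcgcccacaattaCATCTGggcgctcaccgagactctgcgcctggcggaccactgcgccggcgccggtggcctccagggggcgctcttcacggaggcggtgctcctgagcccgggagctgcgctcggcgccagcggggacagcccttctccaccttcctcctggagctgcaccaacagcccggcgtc
Zic1 farthest region, chr9:90733175-90733474: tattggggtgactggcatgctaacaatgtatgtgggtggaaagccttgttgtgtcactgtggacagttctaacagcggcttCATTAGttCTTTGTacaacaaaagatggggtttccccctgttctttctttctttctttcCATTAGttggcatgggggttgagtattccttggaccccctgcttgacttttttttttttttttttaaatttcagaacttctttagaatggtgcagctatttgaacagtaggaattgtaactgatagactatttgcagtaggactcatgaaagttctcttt
The last 3 show regions whose assignment needs care, and they were chosen after their values were seen. One lies at the TSS of Zic2 but is assigned to a noncoding transcript, one lies at an annotated TSS of Zic4 inside an intron of Zic1 and is assigned to Zic1, and one is assigned to Pax6 from inside an intron of Elp4.
Zic2 start region, chr14:122873850-122874149: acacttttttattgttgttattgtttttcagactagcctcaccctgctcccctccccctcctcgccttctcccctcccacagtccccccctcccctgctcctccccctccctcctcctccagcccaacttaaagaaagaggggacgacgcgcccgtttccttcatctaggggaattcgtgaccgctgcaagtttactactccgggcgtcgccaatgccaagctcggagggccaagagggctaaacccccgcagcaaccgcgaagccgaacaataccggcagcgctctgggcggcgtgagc
Zic4 start region in the Zic1 intron, chr9:91256596-91256895: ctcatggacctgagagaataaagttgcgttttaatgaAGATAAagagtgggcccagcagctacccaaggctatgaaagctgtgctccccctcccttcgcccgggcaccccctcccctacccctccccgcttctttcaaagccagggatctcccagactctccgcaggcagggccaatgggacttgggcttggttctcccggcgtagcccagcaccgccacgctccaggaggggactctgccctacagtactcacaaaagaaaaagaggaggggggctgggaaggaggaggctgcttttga
Pax6 region in an Elp4 intron, chr2:105560971-105561270: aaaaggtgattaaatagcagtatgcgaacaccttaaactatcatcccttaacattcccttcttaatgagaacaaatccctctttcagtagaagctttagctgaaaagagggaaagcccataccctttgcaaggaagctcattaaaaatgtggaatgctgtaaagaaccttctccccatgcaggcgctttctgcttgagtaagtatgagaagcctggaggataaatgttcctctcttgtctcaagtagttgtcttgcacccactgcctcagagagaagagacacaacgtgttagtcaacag

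The shares of members with a region, and with one within 1 kb, were within counting error of those of coding genes. A smaller share of their regions lay at a TSS. At least 1 region was assigned to 23 of 38 members (60.5%, 95% Wilson interval 44.7 to 74.4), beside 49.3% of 21031 protein-coding genes. A region within 1 kb of the TSS was assigned to 10 of 38 members (26.3%, 15.0 to 42.0), beside 40.6% of coding genes. Members whose regions were all distal numbered 13 (34.2%, 21.2 to 50.1), beside 8.66%. This class rests on the deposited symbol and start. Zic4 and Pax5 are counted in it, although a region lay within 1 kb of another annotated start of each. Intervals here cover counting error over genes or regions only, and not variation between embryos. No test was made, since the list has no replicate values and the members were chosen as a list.

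Among genes that had a region at all, the contrast was wider. Of the 23 members with a region, 10 had one within 1 kb (43.5%, 25.6 to 63.2), beside 82.4% of the coding genes with a region. Counted over regions, 10 of 46 lay within 1 kb (21.7%, 12.3 to 35.6), beside 52.9% of all 17164. For cardiac and pharyngeal mesoderm regulators it was 8 of 27 (29.6%, 15.9 to 48.5). Other neural regulators had 3 of 34, pharyngeal endoderm markers 1 of 11 and markers of surface ectoderm and placodes 1 of 14. Neural crest markers had 4 of 10 and relatives of the members' families 5 of 10. A low near share was thus not particular to the members. The share of the members depended on the settings. With each region given to the nearest annotated start of any gene it was 14 of 37 (37.8%, 24.1 to 53.9, beside 56% of the list), and with only regions at least as wide as the list median of 1123 bp it was 8 of 22 (36.4%, 19.7 to 57, beside 74.2%). That width limit also left 15 of 38 members with a region (39.5%, 25.6 to 55.3), beside 32.6% of coding genes. The median distance of a member region from its TSS was 16343 bp, and that of all regions 482 bp. Distal member regions by themselves were not farther away than others, with a median of 33726 bp beside 49275 bp. Members with a region had a mean of 2 regions each, beside 1.49 over the 11541 genes of the list. In 10 members it was 1 region, in 7 it was 2, in Neurod1 and Pax8 it was 3, and in Atoh1, Pax6, Zic1 and Zic4 it was 4. Genes with 4 or more regions made up 5.28% of the list. Near and distal regions occurred together in 6 members, 4 members had only the near one, and no member had more than 1 near region. Shares and distances counted over regions therefore also depend on the number of regions per gene. On either side of the 1 kb limit stood Zic5, at 834 bp, and Neurog2, at 1087 bp.

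**Figure D1:**
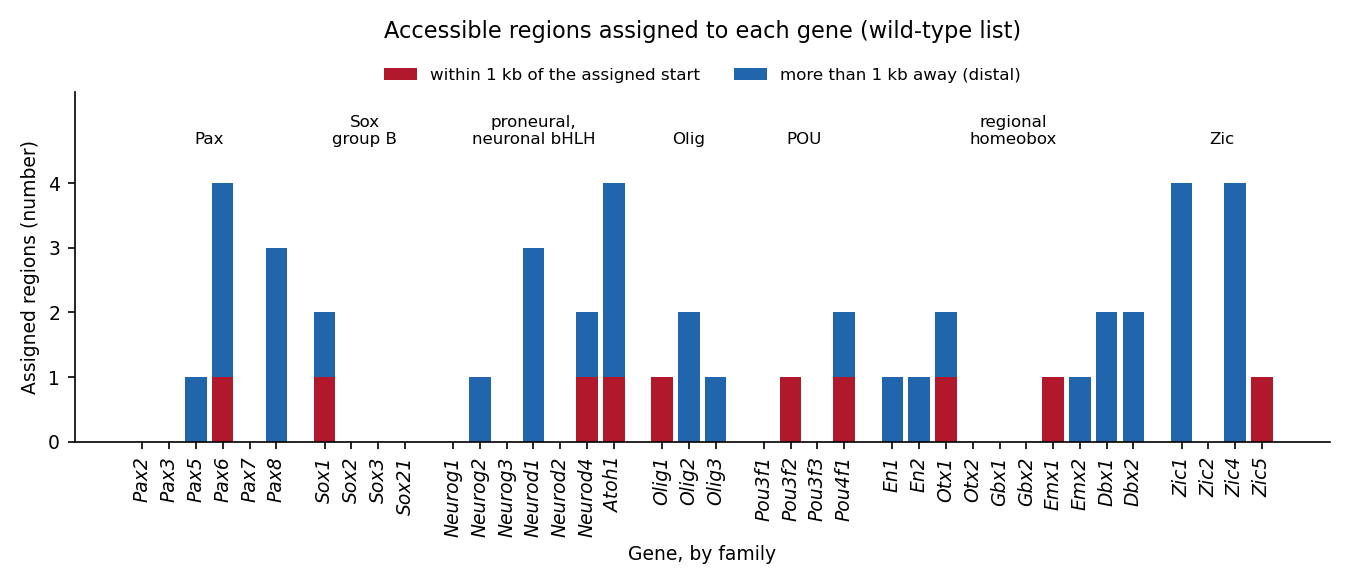
Number of accessible regions assigned to each of the 38 genes, grouped by family, with regions within 1 kb of the assigned TSS in red and distal regions in blue. Genes with no bar had no assigned region; red blocks are never taller than 1, and Atoh1, Pax6, Zic1 and Zic4 reach 4.

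Pax genes had 8 regions in 3 of 6 members, and 7 of the 8 were distal. Pax6, which is needed for the eye and for progenitors of the forebrain and neural tube, had the widest region of all members, 3667 bp at chr2:105513624-105517290, with its center 444 bp upstream of the assigned TSS. This region spans 9 annotated Pax6 starts. The other 3 Pax6 regions lay downstream of that TSS, 1876 bp wide in an intron of Pax6 itself (chr2:105527435-105529310, 5752 bp away) and 967 and 670 bp wide in introns of the neighboring gene Elp4 (chr2:105560638-105561604 and chr2:105619405-105620074, 38501 and 97119 bp away). Width, GC content and CpG frequency fell with distance along the locus in these 4 regions, except that the farthest had more CpG (1.04 per 100 bp) than the one before it (0.310).

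Pax8, a factor of thyroid, kidney and midbrain-hindbrain boundary, had 3 regions, all upstream of its TSS. They were 1173 bp wide at chr2:24358297-24359469 (27764 bp away), 953 bp at chr2:24376621-24377573 (45978 bp) and 1351 bp at chr2:24463294-24464644 (132850 bp). The last of these lay in an intron of Cacna1b and within 1 kb of an annotated Cacna1b start, so its assignment to Pax8 rests on the deposited symbol alone. Pax5, the related factor of B cells and the midbrain-hindbrain boundary, had 1 narrow region of 570 bp, 6551 bp upstream of its TSS. Pax2, the third factor of this subgroup, and Pax3 and Pax7, which act in the dorsal neural tube, neural crest and muscle precursors, had none. Their nearest regions were 171307, 291849 and 143943 bp from any annotated start and were assigned to Fam178a, Farsb and Klhdc7a.

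Of the Sox group B genes, which keep neural progenitors undifferentiated or, for Sox21, help them leave that state, only Sox1 had assigned regions. The first was 1162 bp wide at chr8:12394948-12396109, 9 bp from the TSS, and the second 1041 bp wide at chr8:12429776-12430816, 34777 bp downstream. Sox1 has no annotated start in the gene annotation used, where both regions fall in a gene named Gm5607, so its distances are those deposited. The nearest regions of Sox2 and Sox3 were 145671 and 345614 bp away, the second being the largest such distance of any member. Sox21 is a different case and is described with the other starts below.

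Proneural and neuronal bHLH genes had 10 regions in 4 of 7 members, 2 of them within 1 kb. Atoh1, which specifies cerebellar granule cells and hair cells, had a region of 2709 bp over its TSS (chr6:64677518-64680226, center 268 bp upstream). Downstream of it lay regions of 1273 bp (chr6:64683931-64685203, 5427 bp away) and 1139 bp (chr6:64723070-64724208, 44499 bp), both intergenic. These 3 lay within 100 kb of an annotated Atoh1 start, and no region there was assigned to another gene.

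Neurod4 had a region of 1179 bp at its TSS (chr10:129716747-129717925, center 26 bp upstream) and another of 704 bp at 18577 bp upstream (chr10:129735536-129736239). Its TSS region held 0.933 CpG per 100 bp, the lowest of the 10 regions within 1 kb, of which the other 9 held from 5.09 to 11.9. Neurod1, which acts in neuronal and pancreatic endocrine differentiation, had no region within 1 kb but 3 distal ones. They were 917 bp wide in an exon of Neurod1 (chr2:79294145-79295061, 2190 bp downstream), 1464 bp wide at 2687 bp upstream (chr2:79298749-79300212) and 871 bp wide at 42757 bp upstream (chr2:79339115-79339985). The first 2 flank the TSS on either side. Neurog2, a proneural factor of cortex, spinal cord and cranial ganglia, had 1 region of 747 bp in its own exon, 1087 bp downstream of the TSS, with 10.6 CpG per 100 bp. Neurog1, Neurog3 and Neurod2 had no region, and the nearest ones were 270263, 112767 and 126721 bp away.

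All 3 Olig genes had a region, and only that of Olig1 was near. Olig1 and Olig2, which direct oligodendrocyte and, for Olig2, motor neuron fates, are neighbors on chromosome 16. The Olig1 region was 837 bp wide with its center 25 bp upstream of the TSS (chr16:91269571-91270407), the narrowest of the 10 regions within 1 kb. Olig2 had regions of 1203 bp at 32674 bp upstream (chr16:91192520-91193722) and of 729 bp at 55459 bp upstream (chr16:91169972-91170700), the second in an exon of Gm9881. Olig3, a factor of dorsal interneuron progenitors, had 1 region of 976 bp, 26996 bp upstream.

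Of the POU genes, Pou3f2, a factor of neural progenitors and upper cortical layers, had 1 region of 1336 bp centered 43 bp downstream of its TSS (chr4:22414803-22416138). Pou4f1, which marks sensory neurons, had a region of 1330 bp at 131 bp (chr14:104866421-104867750) and one of 1203 bp at 7096 bp downstream (chr14:104859519-104860721). The Pou4f1 TSS region was the richest in CpG of all 46, at 11.9 per 100 bp. Pou3f1 and Pou3f3 had no assigned region although the DNA within 500 bp of their annotated starts held 14.4 and 13.9 CpG per 100 bp, more than the 12.5 at the start of Pou4f1. The region nearest to Pou3f1 was 35997 bp away and assigned to Utp11l.

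Regional homeobox genes had 10 regions in 7 of 10 members. Otx1, an anterior brain factor, had a wide region at its TSS and a wide distal one, 1983 bp at 175 bp downstream (chr11:21900488-21902470) and 2009 bp at 6142 bp upstream (chr11:21906792-21908800, in an intron of Ehbp1). Emx1, a factor of the dorsal telencephalon, had 1 region of 961 bp centered 289 bp upstream of its TSS. Its paralog Emx2 had 1 region of 1060 bp at 10710 bp downstream. The midbrain-hindbrain genes En1 and En2 each had 1 distal region, of 1385 bp at 41953 bp downstream and of 987 bp at 7262 bp upstream.

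The interneuron progenitor genes Dbx1 and Dbx2 each had 2 distal regions downstream of their TSS. Those of Dbx1, 1280 bp wide at chr7:56777285-56778564 (114281 bp away) and 490 bp at chr7:56705619-56706108 (186342 bp), lay in introns of Nav2, and the second was the narrowest of all member regions. Those of Dbx2 were 947 bp wide in a Dbx2 intron (chr15:95470463-95471409, 14266 bp) and 508 bp wide between genes (chr15:95428999-95429506, 55950 bp). Otx2, Gbx1 and Gbx2 had no assigned region. The nearest region to Gbx1, a gene of the hindbrain and spinal cord, was 50258 bp away and assigned to Abcf2. For Gbx2, a gene of the anterior hindbrain, it was 220355 bp away, while that of Otx2, a gene of forebrain and midbrain, was 42114 bp away and assigned to Otx2os1, a transcript named as its antisense partner.

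Zic genes encode zinc finger factors of the dorsal neural tube, cerebellum and neural crest, and had 9 regions in 3 of 4 members, 8 of them distal. Zic1 and Zic4 lie side by side on chromosome 9, and each had 4 distal regions, all on the downstream side of its assigned TSS. The Zic1 regions were 1394 bp wide at 3891 bp (chr9:91256050-91257443, in a Zic1 intron), 736 bp at 137671 bp (chr9:91122599-91123334), 1096 bp at 461968 bp (chr9:90798122-90799217) and 975 bp at 527312 bp (chr9:90732838-90733812). The last was the member region farthest from its TSS. The Zic4 regions were 1310 bp wide at 12788 bp (chr9:91275944-91277253, in an intron), 2080 bp at 18420 bp (chr9:91281191-91283270, in an exon), 961 bp at 51447 bp (chr9:91314777-91315737) and 847 bp at 335051 bp (chr9:91598438-91599284). The nearest Zic1 region and the nearest Zic4 region are distal by the deposited distances but each contains a further annotated Zic4 start, so Zic4 had regions at starts that the deposited distances do not show. Zic5, on chromosome 14, had 1 region of 2092 bp centered 834 bp downstream of its TSS.

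**Figure D2:**
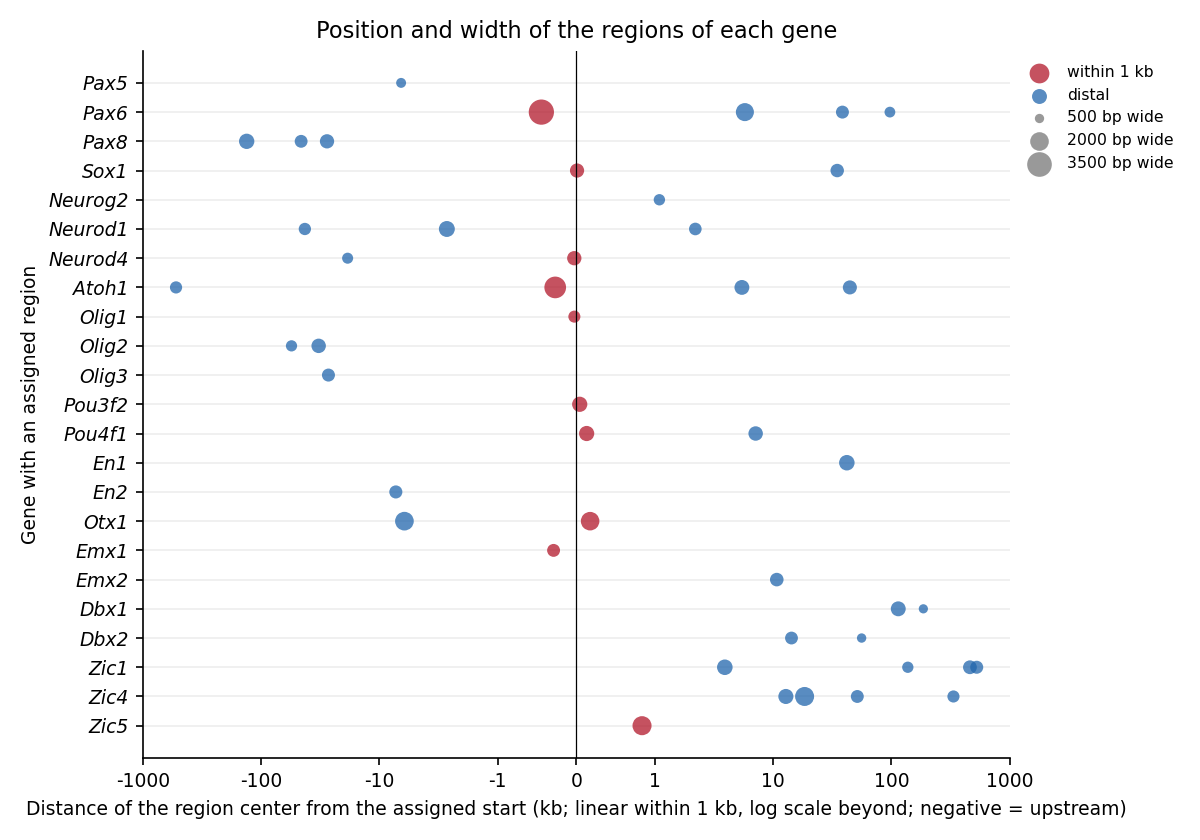
Each of the 46 regions by its signed distance in kb from the assigned TSS (linear within 1 kb, log scale beyond, negative upstream) for the 23 genes with a region, with the area of a point growing with width. The 10 near regions (red) sit at the center line, Pax6 and Atoh1 have the largest near points, all regions of Zic1, Zic4, Dbx1 and Dbx2 are downstream, and all regions of Pax8, Olig2 and Olig3 are upstream.

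Regions close to a TSS were wider and much richer in CpG than distal ones, in the members as in the whole list. The 10 near regions had a median width of 1333 bp (range 837 to 3667), and the 36 distal ones 982 bp (490 to 2080). For all regions of the list the medians were 1294 and 950 bp. The 3 near regions of at least 2 kb, those of Pax6, Atoh1 and Zic5, were 30.0% of 10, beside 9.97% of all regions within 1 kb. The median CpG frequency was 7.34 per 100 bp near the TSS and 2.23 in distal regions, beside 5.93 and 1.35 for all regions. The member medians thus lay above those of the list in both classes, by more for CpG than for width.

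The distal regions were then split by distance, since CpG and width change with it. At 1 to 10 kb lay 10 regions, 21.7% of the member regions (12.3 to 35.6) beside 7.81% of all regions. These 10 had a median width of 1238 bp and 4.74 CpG per 100 bp, beside 1039 bp and 2.46. At 10 to 100 kb lay 18 regions (39.1%, 26.4 to 53.5, beside 24.4%), with 972 bp and 1.73, beside 950 bp and 1.45. Beyond 100 kb lay 8 regions (17.4%, 9.09 to 30.7, beside 14.9%), with 917 bp and 1.1, beside 919 bp and 0.963. The median width and CpG of the members were thus farthest above those of the list at 1 to 10 kb and close to them beyond, while the share of the list lay below the interval of the members both at 1 to 10 kb and at 10 to 100 kb. Regions of 1 gene share a locus and are not replicates. Width also depends on read depth and on how tags were extended, so the widths compare regions of this list only.

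**Figure D3:**
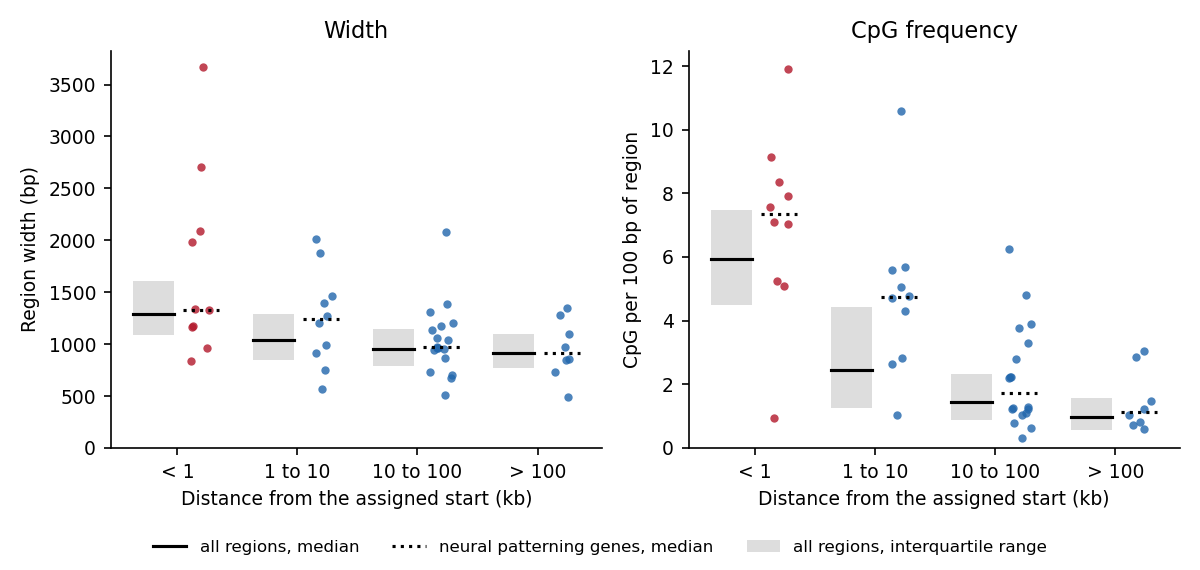
Width in bp (left) and CpG per 100 bp (right) of each of the 46 member regions by distance class, as points with a dotted line at their median, beside the interquartile range (gray box) and median (solid line) of all regions of the class. Classes rest on the deposited distance, and some distal regions lay at other annotated starts. The dotted line is clearly above the solid one for both measures at 1 to 10 kb (1238 beside 1039 bp and 4.74 beside 2.46 CpG), and the lines nearly meet beyond 100 kb (917 beside 919 bp).

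Of the 36 distal regions, 19 had their midpoint between genes, 11 in an intron and 6 in an exon. The intron was that of the assigned gene in 4 cases and of another gene in 7, and the exon was that of the assigned gene in 3 and of another in 3. In 23 of 36 the assigned gene was also the one with the nearest annotated coding start, and in 9 of the 10 near regions, the exception being Sox1. Midpoints of 4 distal regions were within 1 kb of some annotated start, 1 of them of the assigned gene. Of the 36, 23 lay downstream of the assigned TSS (63.9%, 47.6 to 77.5), beside 54.5% of all distal regions.

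Because each region carries 1 symbol, the starts of the members were also examined for any region, whatever its assignment. Annotated starts were known for 37 members, all but Sox1. Of these, 13 had a region whose center was within 1 kb of a start (35.1%, 21.8 to 51.2), beside 47.5% of 18118 coding genes, which lies within that interval. In Sox21, Zic2 and Pax5 the region was assigned only to a noncoding transcript that starts nearby. That of Sox21 was 2521 bp wide (chr14:118634509-118637029), 116 bp from a Sox21 start, contained 3 Sox21 starts and was assigned to LOC105245869. That of Zic2 was 2868 bp wide (chr14:122872567-122875434), 604 bp from a Zic2 start, and was assigned to 2610035F20Rik. Of the 46 assigned member regions, 1 (Pax6) was wider than the Zic2 region and 2 (Pax6 and Atoh1) were wider than the Sox21 region, yet both genes count as having none by symbol. In Pax5 a region of 891 bp (chr4:44716833-44717723) lay 400 bp from an internal start and was assigned to 5730488B01Rik. Pou3f3 just missed the limit, with a region of 1789 bp at 1755 bp from its start assigned to Pantr1. No region lay within 1 kb of the starts of 2 members (0 regions).

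Most member starts were rich in CpG, which in the list as a whole went with an open start. The CpG frequency within 500 bp of a start, taken at the start of each gene where it was highest, had a median of 7.09 per 100 bp over members and 5.09 over coding genes. Coding genes with a region at a start had a median of 6.99, and those without 1.90. Among members the corresponding medians were 7.39 and 6.29, so the starts without a region were nearly as rich as those with one. In the top 3 of 10 CpG classes of equal size, 8 of 18 members had a region at a start (44.4%, 24.6 to 66.3), beside 74.4% of 5435 coding genes. Over the top 6 classes it was 12 of 32 (37.5%, 22.9 to 54.7), beside 70.9% of 10870, and 8 of 12 cardiac and pharyngeal mesoderm regulators (66.7%, 39.1 to 86.2). The CpG-rich starts without a region were those of Pou3f1, Pou3f3, En2 and Sox3 in the highest class, of Neurog1, Sox2 and Emx2 in the next, and of Pax7, Gbx1 and Neurog2 in the third. Of these, Pou3f3 and Neurog2 had a region centered beyond the 1 kb limit but near it, at 1755 and 1096 bp. So had Zic1, in the top 6 classes, at 1146 bp. The exception in the other direction was Neurod4, whose start held 1.10 CpG per 100 bp and had a region, in a class in which 1.93% of coding genes did.

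**Figure D4:**
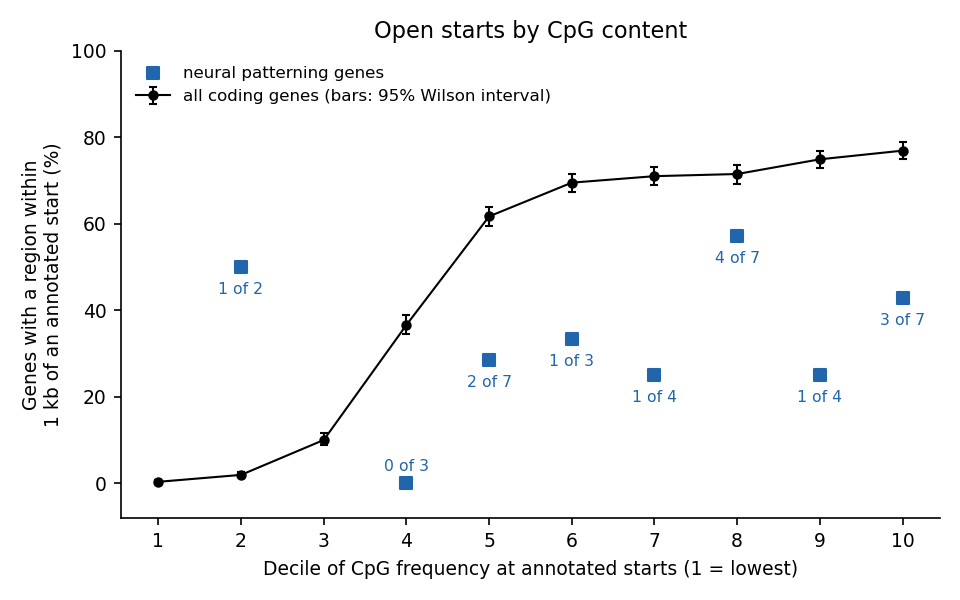
Percent of genes with an accessible region within 1 kb of an annotated start by decile of CpG frequency at the start, for all coding genes (black, bars are 95% Wilson intervals) and for the members (blue squares, with the counts). From the fifth decile up, the coding genes run from 61.7 to 76.9% and each member square lies below the line; the single square above it, 1 of 2 in the second decile, is Neurod4.

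Some members had no region anywhere near. In 9 of 37 no region lay within 100 kb of any annotated start (24.3%, 13.4 to 40.1), beside 14.9% of 18118 coding genes, which lies within that interval. These were Pax2, Pax3, Pax7, Sox2, Sox3, Neurog1, Neurog3, Neurod2 and Gbx2, all among the 15 members without an assigned region. The other 6 of the 15, Sox21, Zic2, Pou3f1, Pou3f3, Otx2 and Gbx1, had regions within 100 kb that carried other symbols. Over the 15 genes the nearest region was between 116 bp (Sox21) and 345614 bp (Sox3) away, with a median of 126721 bp. The members also lay far from other coding genes, with a median of 44326 bp from a start to the next coding start beside 17116 bp for all coding genes, and the part of this spacing in the counts was not tested. The cardiac and pharyngeal mesoderm regulators had a median of 64399 bp, and 1 of 16 (6.25%, 1.11 to 28.3), Tbx5, had no region within 100 kb. A gene without a region cannot be taken as closed, since only regions called in each of the 3 libraries entered the list.

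**Figure D5:**
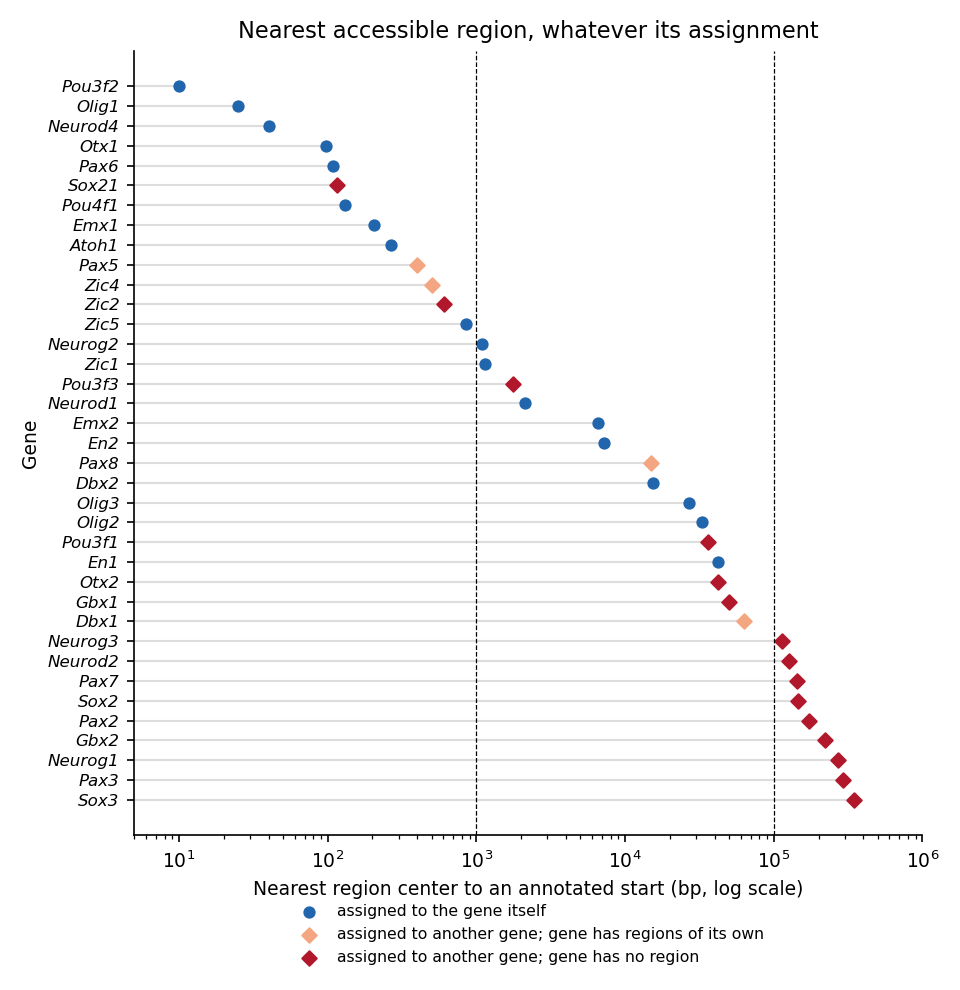
Distance in bp (log scale) from an annotated start of each of 37 genes to the center of the nearest accessible region of any assignment, with dashed lines at 1 kb and 100 kb. Blue circles are regions assigned to the gene itself, orange diamonds are regions assigned to another gene where the gene has regions elsewhere, and red diamonds are genes with no assigned region; 13 genes lie left of the first line and 9 right of the second.

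Short words bound by transcription factor families were counted in the central 300 bp of each region, on both strands. The words were the E-boxes CAGCTG and CAGATG of bHLH factors, ACAAAG of Sox factors, ATGCAAA of POU factors, TAATTA and CTAATG of homeodomain factors (which share the letters TAAT), and AGATAA of GATA factors. Of the 36 distal member regions, 7 held TAATTA (19.4%, 9.75 to 35), beside 8.12% of all 8081 distal regions. They belonged to Atoh1, Otx1, Pax5, Pax8, Pou4f1 and Zic4, among them the Otx1 window printed above. CAGATG occurred in 11 (30.6%, 18 to 46.9) beside 21.9%, CTAATG in 7 (19.4%, 9.75 to 35) beside 11.2%, and CAGCTG in 5 (13.9%, 6.08 to 28.7) beside 23.5%. The shares of the remaining words were close to those of the list, with ACAAAG in 11 (30.6% beside 33.9%), AGATAA in 6 (16.7% beside 14.5%) and ATGCAAA in 2 (5.56% beside 5.49%). In distal regions, TAATTA was the one word of the 7 for which the share over the list fell outside the interval of the members. In the 10 near regions each word was found in at most 2, with ATGCAAA in those of Pax6 and Sox1 (20.0%, 5.67 to 51.0, beside 2.32%). There too the share over the list fell outside the interval, but on 2 regions only. No allowance was made for reading 7 words in both classes, and regions of 1 gene are not independent. A match describes the letters only and is not evidence of binding.

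Other neural regulators were counted in the same way. Of 34 such genes outside the member list, among them Nkx2-2, Lmx1a and Fezf2, 21 had a region (61.8%, 45.0 to 76.1, beside 49.3% of coding genes). A region within 1 kb was assigned to 3 (8.82%, 3.05 to 23.0, beside 40.6% of coding genes), Nkx6-1 and Sim1 among them. All regions were distal in 18 (52.9%, 36.7 to 68.5, beside 8.66% of coding genes). Fezf1, Fezf2, Lmx1a, Nkx6-1 and Prdm13 had 3 regions each. Among 13 relatives of the members' families, such as Pax9, 7 had a region (53.8%, 29.1 to 76.8). It lay within 1 kb in 5 (38.5%, 17.7 to 64.5) and was only distal in Pax1 and Sox14. Of the 16 cardiac and pharyngeal mesoderm regulators, 8 had a region within 1 kb and 1, Gata4, had only 1 region, which was distal (6.25%, 1.11 to 28.3). Distal-only assignment was also found for 4 of 9 pharyngeal endoderm markers and 4 of 9 markers of surface ectoderm and placodes (44.4% each, 18.9 to 73.3). It was found for 2 of 8 neural crest markers (25.0%, 7.15 to 59.1, beside 8.66% of coding genes). Whether lists of this size differ was not tested.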

How the data were processed

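ATAC-Seq libraries of E8.75 pharyngeal mesoderm and hearts were assigned to groups from the genotype label, and 1 list from the wild-type group was used. Per the methods, the authors mapped reads to mm9 with Bowtie2, filtered pairs with SAMtools, removed duplicates with Picard 1.136, called peaks in each library with MACS14 without a model and with a fixed shift size, removed blacklisted peaks, and used bedtools 2.15 to keep those shared by the replicates (minimum overlap 1 bp). No offset for the Tn5 cut is stated, so edges are not insertion sites. The deposited columns hold positions and signed distances in bp, a transcript and a symbol. How genes were assigned is stated for the ChIP-Seq peaks only.

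Positions were read as 1-based and closed, and the 17432 rows gave 17164 distinct regions. No column of values was left unmapped (0). Members and lists were chosen with earlier results of these data known. All 38 members are named. Members with 2 or more regions have each region given, except 1 Atoh1 region that is not reported here, and those with none have their nearest region. The rule for printed sequences passed over windows with annotated untranslated sequence (Pax6 and Zic4) and took the next region. Genes of the list were matched to RefSeq names of GRCm38.p6 by accession (11161), symbol (359) or synonym (15), and 6 were unmatched. Starts and sequence came from NCBIM37 with GENCODE vM1. Shares have 95% Wilson intervals. Scripts used Python 3.11.15, pandas 2.3.3, numpy 2.4.6, pysam 0.24.0 and matplotlib 3.10.9, and were tested on simulated data. Alternatives changed the window at the TSS, the start used, the assigned gene, the widths kept, repeated rows, joining of neighbors and the part used for CpG.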

Additional observations from a re-analysis of the deposited data

How the results depend on the processing

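Most values held: of 38 alternative values, 34 stayed within 1.5 times the reported count or within its interval or spread, and 4 moved. Keeping only regions of 1123 bp or more, the median width of the list, left 15 of 23 members with a region and 22 of 46 regions, with 36.4% within 1 kb in place of 21.7% (74.2% over the list under the same limit). This filter removes narrow regions by construction, and distal regions are narrower. Assigning regions to the nearest annotated start of any gene gave 37.8% within 1 kb, from 14 near regions of 13 members among 37 regions (56% over the list). With the nearest start of a coding gene, an alternative chosen after seeing the data, it was 25.9% (54 regions, 25 members). Windows of 500 bp and 2 kb gave 19.6% and 23.9%. CpG medians in the central 500 bp were 8.50 near and 2.70 distal.

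No paired analysis was possible because the 3 wild-type libraries gave 1 shared list, with no value per library and no list for the other groups in use. For the same reason leaving out each library in turn and changing the peak threshold were not run. Depth is unknown, so weakly open and closed promoters are not separated, and the number of regions of a gene rests on the assignment rule.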
